A study of Homo sapiens and Mus musculus with 12 samples.

Results

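The 6 untreated libraries of the series were compared with each other, 3 from MDA-MB-231 and 3 from 4T1 cells out of 12 RNA-seq libraries in all. They were chosen by their label, which gives DMSO, the solvent of the drug, as the only treatment. MDA-MB-231 is a human line from a triple-negative breast cancer, and 4T1 is a mouse mammary carcinoma line that is grown as a graft in BALB/c mice to model the same disease. The labels call both lines wild-type epithelial cells from breast, and both were grown in DMEM with fetal bovine serum and kept in DMSO for 24 h before total RNA was extracted. The paper states that more 4T1 than MDA-MB-231 cells were plated per dish. This difference in plating went with the line, so its part in the values below cannot be told apart. The other 6 libraries, 3 of each line, received 1 µmol/L ponatinib, an inhibitor of several tyrosine kinases, for the same time. The study asked in these lines how the drug lowers the chemokines CXCL1 and CXCL2. Here the question is what each line expressed before the drug.

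Each species was represented by 1 line and each line came from 1 species, so a difference between the lines and a difference between human and mouse cannot be told apart. Genes were paired where a protein-coding gene had the same symbol in both annotations, letter case ignored. Of the 16249 genes paired in this way, 11867 had enough counts to be tested. Levels are given as TPM, a measure of transcript abundance. TPM values divide the counts of a gene by the summed length of its exons and by the depth of the library, so that genes and species can be set side by side. A log2 difference is MDA-MB-231 minus 4T1 throughout, so a positive value means a higher level in MDA-MB-231. A gene was called when its adjusted p was under 0.05 in the quasi-likelihood test of edgeR, with p adjusted after Benjamini and Hochberg, and its difference was at least 4-fold, since between species the adjusted p alone was passed by most genes.

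As background, breast epithelium is built from luminal cells, which line the duct and can make milk, and from basal or myoepithelial cells, which contract and rest on the basement membrane. Carcinoma cells that lose contact with their neighbours often exchange junction proteins such as E-cadherin for vimentin, fibronectin and matrix enzymes, a shift known as epithelial to mesenchymal transition. Tumour cells also release chemokines and colony-stimulating factors, which draw in and mature neutrophils, monocytes and myeloid-derived suppressor cells. Receptor tyrosine kinases, the SRC family, the MAP kinase cascade and the JAK-STAT pathway pass such signals from the membrane to the nucleus.

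The MDA-MB-231 libraries held 15642659 to 16294543 counts and the 4T1 libraries 18586137 to 18951493, and the paired genes carried 92.7% to 93.5% of them. Pearson correlations of log2(TPM + 0.5) over the tested genes were 0.9948 to 0.9967 among the MDA-MB-231 libraries, 0.9954 to 0.997 among the 4T1 libraries and 0.5294 to 0.5422 between the lines. These are correlations across genes, which are not independent replicates. Mitochondrial genes took 5.17% to 5.305% of counts in MDA-MB-231 against 0.732% to 1.15% in 4T1, and the part of this in the differences below was not tested. No label says that the libraries of a line came from separate cultures, so every p measures the spread between these libraries, which may be technical.

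The lines differed at most genes. At the adjusted p alone, MDA-MB-231 was higher at 5422 genes (45.7%) and 4T1 at 5378 (45.3%). With the 4-fold requirement, 2698 genes (22.7%) were called in favour of MDA-MB-231 and 2422 (20.4%) in favour of 4T1, and these shares are the background against which each group of genes below is read. The libraries of the 2 lines did not overlap at 10836 genes (91.3%), including every called gene. The median log2 difference over all tested genes was 0.0051, and its quartiles were -1.60 and 1.76. The scaling between the lines included a composition factor, and without it every log2 difference would shift by -0.31. At 1 TPM or more in all 3 libraries of a line, 8879 paired genes were expressed in both lines, 1449 in MDA-MB-231 alone and 1105 in 4T1 alone.

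Counting differed between the species in ways that move single genes, so each call was also read against a stricter call, which was chosen after the data were seen. It required the 4-fold difference under 4 ways of measuring gene length (merged exons, canonical transcript, its coding part and no length at all) and a gene that could be counted in both species. Countable meant that at least 80% of 100-base windows of the transcript matched 1 place in the genome. It also meant that at most 20% of the exon bases of the transcript lay in exons of another gene, on either strand. Below, a share of exons that overlap another gene is a share of these bases. Last, the human identifier was not a late one. The last condition was added because 124 paired genes carried human identifiers numbered 260000 or above, and 23 of the 38 that reached 10 TPM in 4T1 (60.53%) had 0 counts in every MDA-MB-231 library, against 94 of 7501 other genes (1.253%). TXNIP, a thioredoxin inhibitor, and TAF15, an RNA-binding protein, were among them, and a 0 for such a gene is not read as absence. Under the stricter call, MDA-MB-231 was higher at 1671 genes (14.1%) and 4T1 at 1392 (11.7%).

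**Figure D1:**
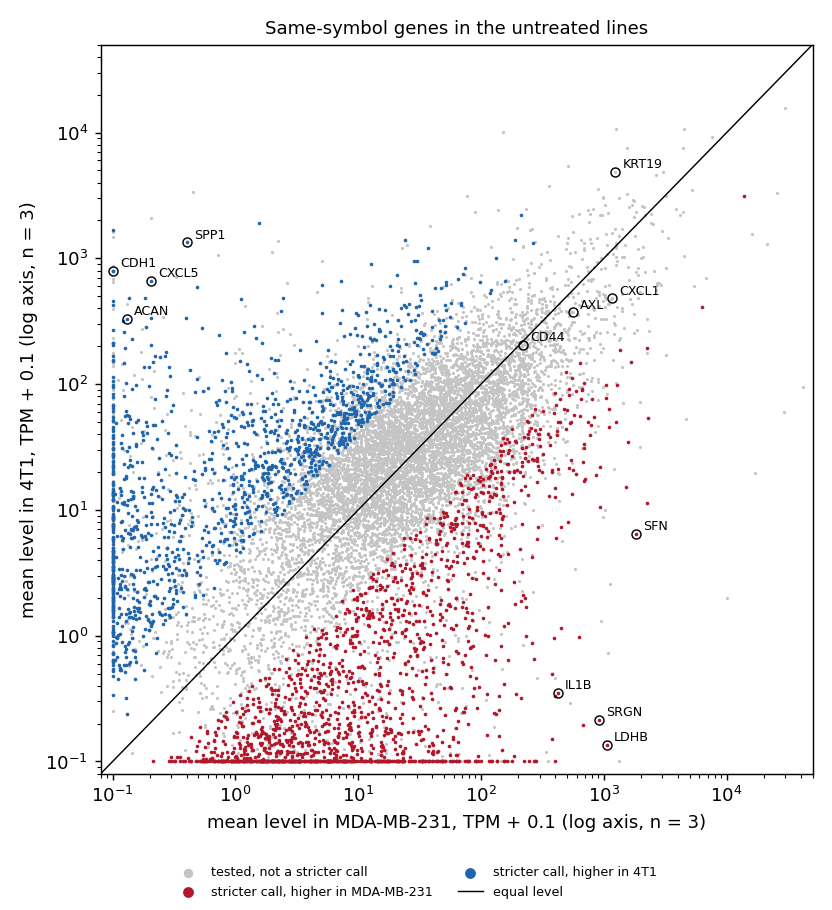
Mean level of each tested gene in the untreated MDA-MB-231 libraries (horizontal, TPM + 0.1, log axis, n = 3) against the untreated 4T1 libraries (vertical, same scale). Coloured points are the 1671 and 1392 stricter calls, the line marks equal levels, and CDH1, CXCL5, SPP1 and ACAN stand at the left edge while IL1B, SRGN and LDHB lie at the bottom right.

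Of 5 hormone and ERBB receptor genes tested, 2 were called higher in MDA-MB-231 against 2 in 4T1, all of them also under the stricter call. The calls for 4T1 were ESR1 and ERBB3. Those for MDA-MB-231 were EGFR and a receptor not named here, at a log2 difference of 7.39. That receptor did not reach 1 TPM in all 3 libraries of either line. The 2 hormone receptors that define the triple-negative class were close to or below 1 TPM in both lines. ESR1, the oestrogen receptor, was at 0, 0.0187 and 0.0362 TPM in MDA-MB-231 and 0.862, 1.29 and 1.104 TPM in 4T1, from 3 counts in all of MDA-MB-231, a ratio of 58.5 4T1 over MDA-MB-231 (95% counting interval 19.7 to 286). PGR, the progesterone receptor, was at 0.142, 0.1399 and 0.237 TPM in MDA-MB-231 and 0 TPM in every 4T1 library and had too few counts to be tested. ERBB2, the HER2 receptor, was at 40.5, 35.5 and 36.5 TPM in MDA-MB-231 and 82.3, 76.1 and 67.4 TPM in 4T1. All 3 4T1 libraries were higher for ERBB2 on this scale (log2 difference -1.004, adjusted p = 4.9e-09), but the value ran up to 0.25 with the other lengths, so its direction was not fixed. EGFR, the epidermal growth factor receptor, was called higher in MDA-MB-231, at 53.7, 65.8 and 65.1 TPM in MDA-MB-231 and 13.2, 15.1 and 13.2 TPM in 4T1 (log2 difference 2.15 ± 0.10 SE, adjusted p = 6.1e-14). Without the composition factor the EGFR difference was 1.85, below the 4-fold limit. ERBB3, which needs a partner to signal, was at 0.778, 0.878 and 0.763 TPM in MDA-MB-231 and 8.42, 8.13 and 8.22 TPM in 4T1 and was called higher in 4T1 (log2 difference -3.35, adjusted p = 1.9e-13).

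Luminal genes were mostly higher in 4T1. Of 12 tested members of the list, 7 were called higher in 4T1 against 2 in MDA-MB-231, with 4 and 2 under the stricter call, and the median log2 difference was -2.89. FOXA1, a factor that opens chromatin for hormone receptors, was at 3.303, 2.44 and 3.83 TPM in MDA-MB-231 and 31.2, 30.1 and 32.6 TPM in 4T1 (log2 difference -3.29, adjusted p = 9.5e-14). ELF3, an epithelial ETS factor, was at 0.0362, 0.0357 and 0.0346 TPM in MDA-MB-231 and 55.7, 54.4 and 55.9 TPM in 4T1, a ratio of 1559 4T1 over MDA-MB-231 (95% counting interval 532 to 7564). Its relative EHF was at 0, 0.0777 and 0.1501 TPM in MDA-MB-231 and 34.6, 35.2 and 37.3 TPM in 4T1. CSN3, the milk protein kappa-casein, was at 29.98, 29.8 and 31.5 TPM in 4T1 and had no count in MDA-MB-231, which makes it at least 113-fold higher in 4T1.

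The 2 luminal genes that went the other way were SPDEF and KRT7. SPDEF, a luminal and secretory ETS factor, was at 33.5, 23.5 and 26.99 TPM in MDA-MB-231 and 0, 0 and 0.212 TPM in 4T1, with 2 counts in all of 4T1 and a ratio of 391 MDA-MB-231 over 4T1 (95% counting interval 108 to 3234). KRT7, a simple-epithelium keratin, was at 479, 396 and 465 TPM in MDA-MB-231 and 8.78, 6.86 and 6.14 TPM in 4T1 (log2 difference 5.94, adjusted p = 1.1e-18). GATA3, which maintains luminal cells, did not pass the test, at 9.12, 8.02 and 8.34 TPM in MDA-MB-231 and 8.42, 10.2 and 8.33 TPM in 4T1 (log2 difference -0.08 ± 0.15 SE, adjusted p = 0.61), and its libraries overlapped.

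Basal and myoepithelial genes went both ways. Among 16 tested, 6 were called higher in MDA-MB-231 against 3 in 4T1 (4 and 2 under the stricter call), with a median log2 difference of 0.10. SFN, the epithelial 14-3-3 protein, was at 2217, 1649 and 1654 TPM in MDA-MB-231 and 7.76, 5.505 and 5.76 TPM in 4T1 and so was among the most abundant lineage genes of MDA-MB-231 (log2 difference 8.18 ± 0.17 SE, adjusted p = 2.9e-19). COL17A1, a collagen of hemidesmosomes, was at 8.31, 7.46 and 7.61 TPM in MDA-MB-231 and 0.0833, 0.0821 and 0 TPM in 4T1. KRT14, the keratin of basal cells, was at 2.19, 1.82 and 3.41 TPM in MDA-MB-231 and 18.2, 19.5 and 22.97 TPM in 4T1 and was called higher in 4T1 (log2 difference -3.02), as was MYLK, the kinase that drives contraction, at 0.809, 1.1 and 1.12 TPM in MDA-MB-231 and 16.9, 15.2 and 15.1 TPM in 4T1. CD44, a hyaluronan receptor, and ITGB4, the hemidesmosome integrin, did not pass the test. CD44 was at 212, 229 and 223 TPM in MDA-MB-231 and 199.6, 209 and 206 TPM in 4T1 (adjusted p = 0.22), and its log2 difference ran from 0.11 to 0.94 over the lengths. ITGB4 was at 12.7, 12.96 and 13.7 TPM in MDA-MB-231 and 13.5, 10.9 and 12.6 TPM in 4T1 (adjusted p = 0.48).

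Genes of epithelial junctions held some of the widest differences between the lines. CDH1, which encodes E-cadherin (human chromosome 16, 68737292 to 68835537; mouse chromosome 8, 107329941 to 107396880; builds GRCh38 and GRCm39 here and below), had 0 counts in every MDA-MB-231 library and 769.6, 857 and 759 TPM in 4T1, at least 18946-fold higher there. Of 32 junction genes tested, 11 were called higher in 4T1 against 6 in MDA-MB-231, or 9 and 4 under the stricter call, around a median of -0.59. PPL, which encodes periplakin, was at 0.0676, 0.0667 and 0.0968 TPM in MDA-MB-231 and 42.7, 41.8 and 33.9 TPM in 4T1, and TJP1, the tight-junction scaffold ZO-1, at 14.1, 18.5 and 16.8 TPM in MDA-MB-231 and 222, 268 and 238 TPM in 4T1. GRHL2, a factor that keeps epithelial genes on, had 3.61, 3.89 and 4.54 TPM in 4T1 and no count in MDA-MB-231. F11R, a junctional adhesion molecule, was at 23.8, 22.2 and 20.6 TPM in MDA-MB-231 and 615, 559.8 and 569.8 TPM in 4T1 (log2 difference -4.71), although 39.9% of its human exons overlap another gene.

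MDA-MB-231 was higher at another set of epithelial genes. AP1M2, an adaptor that sorts proteins to the basolateral membrane, was at 159, 124 and 119.7 TPM with 0 counts in 4T1, at least 1706-fold higher in MDA-MB-231. CLDN7, a claudin of tight junctions, was at 48.1, 45.2 and 40.7 TPM in MDA-MB-231 and 0.356, 0.234 and 0 TPM in 4T1. LSR, which marks junctions where 3 cells meet, was at 79.02, 62.1 and 66.6 TPM in MDA-MB-231 and 2.88, 1.63 and 1.19 TPM in 4T1. In the mouse, 24.8% of the exons of CLDN7 and 42.8% of those of LSR overlap another gene, and neither passed the stricter call. EPCAM, another surface marker of epithelium, was above the 4-fold limit in neither direction, at 11.2, 9.199 and 10.9 TPM in MDA-MB-231 and 4.74, 4.96 and 5.01 TPM in 4T1 (log2 difference 1.09), and DSP, the desmosome linker, was at 17.3, 21.4 and 20.9 TPM in MDA-MB-231 and 14.2, 16.7 and 14.6 TPM in 4T1 (log2 difference 0.39).

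The human promoters of 3 of these junction genes are shown because they bear a short motif, CACCTG on either strand (CAGGTG), which repressors such as ZEB1 and SNAI1 are known to bind in epithelial genes. The windows run from 250 bases before to 50 after a start site and are RefSeq sequence on GRCh38.p14, and capitals mark the motif. RAB25, a small GTPase of epithelial recycling vesicles, was higher in 4T1, and AP1M2 and CLDN7 were higher in MDA-MB-231.
RAB25, chr1:156060910-156061209, plus strand: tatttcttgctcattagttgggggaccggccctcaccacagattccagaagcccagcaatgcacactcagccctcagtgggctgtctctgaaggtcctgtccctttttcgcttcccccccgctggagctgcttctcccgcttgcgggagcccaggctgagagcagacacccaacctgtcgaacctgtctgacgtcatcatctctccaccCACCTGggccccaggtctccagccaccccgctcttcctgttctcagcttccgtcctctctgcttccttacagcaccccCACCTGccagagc
AP1M2, chr19:10587263-10587562, minus strand: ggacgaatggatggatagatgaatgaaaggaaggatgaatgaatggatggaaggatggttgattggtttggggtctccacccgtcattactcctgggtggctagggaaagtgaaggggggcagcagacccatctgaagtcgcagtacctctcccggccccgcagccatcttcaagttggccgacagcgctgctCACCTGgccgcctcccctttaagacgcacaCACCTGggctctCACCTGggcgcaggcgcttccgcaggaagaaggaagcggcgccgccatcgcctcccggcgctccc
CLDN7, chr17:7262429-7262728, minus strand: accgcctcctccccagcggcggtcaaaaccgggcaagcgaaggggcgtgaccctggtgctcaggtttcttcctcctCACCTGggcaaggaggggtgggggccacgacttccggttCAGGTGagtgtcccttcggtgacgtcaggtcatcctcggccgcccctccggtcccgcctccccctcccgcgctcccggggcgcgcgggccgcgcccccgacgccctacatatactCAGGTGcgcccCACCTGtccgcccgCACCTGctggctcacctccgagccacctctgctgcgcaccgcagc
The window held 2 matches in RAB25, 3 in AP1M2 and 5 in CLDN7. Of the 11 junction genes called higher in 4T1, 4 had a window in the table and 3 of those held the motif. Of the 6 called higher in MDA-MB-231, 4 had a window and 3 held it. CDH1 had no window, and only human windows of these genes were read, so nothing is said of the mouse promoters. TJP1 had 4 windows, and CLDN7, DSC2 and TJP3 had 2 each. Among all 35116 windows of the table, 7231 (20.59%) held it. Some genes have more than 1 window, and 24.07% of the 27305 genes in the table had at least 1 window that held it. RAB25 itself was at 0, 0.152 and 0 TPM in MDA-MB-231 and 2.97, 2.09 and 1.66 TPM in 4T1, with 1 count in all of MDA-MB-231 and a ratio of 44.4 4T1 over MDA-MB-231 (95% counting interval 7.59 to 1788).

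Among mesenchymal genes too, each line was higher at a different part of the list. Of 23 tested, 8 were called higher in MDA-MB-231 against 8 in 4T1 (7 and 6 under the stricter call), with a median of -0.66. The transcription factors were mostly higher in 4T1. TWIST1 was at 0.1304, 0 and 0 TPM in MDA-MB-231 and 103, 90.4 and 82.9 TPM in 4T1, from 1 count in all of MDA-MB-231 and a ratio of 2158 4T1 over MDA-MB-231 (95% counting interval 387 to 85270). ZEB1 was at 8.04, 10.01 and 9.13 TPM in MDA-MB-231 and 29.2, 31.9 and 30.03 TPM in 4T1, below the 4-fold limit with merged exons (log2 difference -1.75, adjusted p = 2.7e-12) but past it with each other length, to -2.27, and ZEB2 at 0.916, 0.963 and 1.16 TPM in MDA-MB-231 and 6.68, 8.87 and 7.66 TPM in 4T1 (log2 difference -2.93, adjusted p = 9.9e-14). SNAI2 was at 35.6, 42.99 and 43.98 TPM in MDA-MB-231 and 181, 191 and 186 TPM in 4T1 (log2 difference -2.19, -1.44 at the smallest over the lengths). SNAI1 was the exception, at 13.1, 14.9 and 11.5 TPM in MDA-MB-231 and 3.704, 2.13 and 2.26 TPM in 4T1 (log2 difference 2.28, adjusted p = 4.6e-08), a call that the shift of -0.31 would take just below the limit.

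Of the structural mesenchymal proteins, FN1 and SPARC were higher in 4T1 and LOX, TGFBI and FSTL1 in MDA-MB-231. FN1, fibronectin, was at 24.9, 27.9 and 32.01 TPM in MDA-MB-231 and 1030, 978 and 865 TPM in 4T1 (log2 difference -5.08 ± 0.13 SE, adjusted p = 5.3e-18), and SPARC, a collagen-binding glycoprotein, at 1.35, 0.554 and 1.34 TPM in MDA-MB-231 and 275, 252 and 252 TPM in 4T1 (log2 difference -7.90). VIM, vimentin, was abundant in both, at 1063, 982 and 902 TPM in MDA-MB-231 and 3334, 2715 and 3085 TPM in 4T1, and the 4T1 libraries were all higher by less than 4-fold (log2 difference -1.63); 45.6% of its human exons overlap another gene. LOX, which cross-links collagen, was at 36.8, 41.2 and 41.8 TPM in MDA-MB-231 and 0, 0.05003 and 0 TPM in 4T1, with 1 count in all of 4T1. TGFBI, a matrix protein induced by TGF-beta, was at 164, 168 and 166 TPM in MDA-MB-231 and 0.7296, 0.392 and 0.518 TPM in 4T1 (log2 difference 8.24, adjusted p = 1.2e-19). FSTL1, a follistatin-like secreted protein, was at 81.3, 93.3 and 95.2 TPM and had no count in 4T1, at least 3673-fold higher. AXL, a receptor tyrosine kinase of mesenchymal carcinoma cells, was high in both at 541, 561 and 578 TPM in MDA-MB-231 and 387, 376 and 354 TPM in 4T1 (log2 difference 0.59), and the value ran from -0.11 to 0.59 over the lengths, so its direction was not fixed.

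Keratins, the filament proteins of epithelium, were called in both directions, with a median log2 difference of -2.49. Of 18 tested, 9 (50%) were called higher in 4T1 against 6 (33.3%) in MDA-MB-231, falling to 6 and 2 under the stricter call. KRT18 was at 175, 144 and 133 TPM in MDA-MB-231 and 10597, 9353 and 10149 TPM in 4T1, and its partner KRT8 at 577, 484 and 469.6 TPM in MDA-MB-231 and 5791, 4932 and 5534 TPM in 4T1. Both were called higher in 4T1 (log2 difference -6.06 and -3.41), but 26.5% of the human KRT18 exons overlap another gene and 76.3% of the mouse KRT8 windows were unique. The KRT8 call was lost with each other length, down to a log2 difference of -1.30. KRT19 was at 1406, 1151 and 1174 TPM in MDA-MB-231 and 5350, 4246 and 5060 TPM in 4T1, just below the 4-fold limit (log2 difference -1.97). KRT23 was seen in 4T1 alone at 213, 199 and 228 TPM, at least 2434-fold higher. KRT81, a hair keratin, was at 1530, 1286 and 1147 TPM with no count in 4T1, but 67.6% of its human windows and 66.7% of its mouse windows were unique, so its level is uncertain in both lines.

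**Figure D2:**
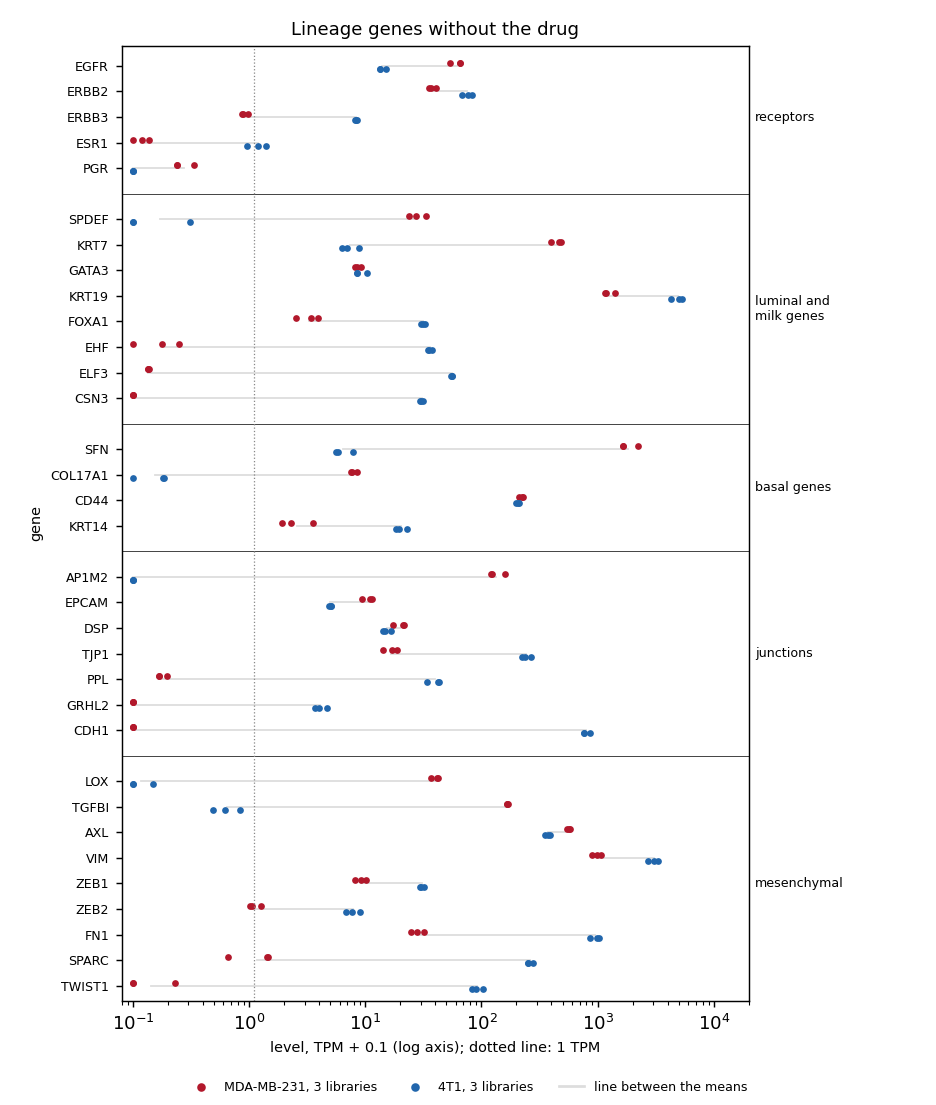
Level of lineage genes in each untreated library (horizontal, TPM + 0.1, log axis; 3 MDA-MB-231 libraries in red, 3 4T1 libraries in blue, grey bars joining the means, dotted line at 1 TPM). CDH1, GRHL2, TWIST1 and SPARC lie to the right in 4T1, SFN, AP1M2 and LOX to the right in MDA-MB-231, and CD44, GATA3 and DSP nearly coincide.

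Chemokines, which draw leukocytes to a tissue, were mostly higher in 4T1. Of 15 tested, 10 were called higher in 4T1 against 2 in MDA-MB-231, against the background of 20.4% and 22.7%, with 8 and 2 under the stricter call. The median log2 difference was -4.98, or -4.43 with genes at 0 set to their bounds, beside 0.0051 over all genes. The neutrophil-drawing chemokines of the CXCL1 to CXCL5 group split. CXCL1 (human chromosome 4, 73869393 to 73871308; mouse chromosome 5, 91039094 to 91040974) was at 1114, 1211 and 1170 TPM in MDA-MB-231 and 567, 396 and 477 TPM in 4T1. CXCL2 (human chromosome 4, 74097040 to 74099196; mouse chromosome 5, 91051730 to 91053797) was at 127, 146 and 138 TPM in MDA-MB-231 and 97.01, 76.2 and 91.7 TPM in 4T1. All 3 MDA-MB-231 libraries were above all 3 4T1 libraries for both, by less than 4-fold (log2 difference 1.28 ± 0.11 SE, adjusted p = 8.5e-10, for CXCL1 and 0.63 ± 0.11 SE, adjusted p = 1.7e-05, for CXCL2).

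CXCL3, their close relative, stood the other way, at 38.6, 47.7 and 47.3 TPM in MDA-MB-231 and 212, 162 and 175 TPM in 4T1 (log2 difference -2.04, adjusted p = 1.1e-12). This lay at the 4-fold limit, and the call was lost without MDA-MB-231 replicate 1 (-1.94), without 4T1 replicate 1 (-1.925) and with RLE factors (-1.97). CXCL5 was at 0.214, 0 and 0.102 TPM in MDA-MB-231 and 707, 605 and 686 TPM in 4T1, with 3 counts in all of MDA-MB-231 and a ratio of 6359 4T1 over MDA-MB-231 (95% counting interval 2175 to 30837). In 4T1 it was thus the highest of these 4 genes, and in MDA-MB-231 it was close to 0. Symbols alone do not settle which human and mouse members of this group correspond, since the group expanded separately in the 2 species.

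Of the other chemokines tested, CCL26 and CCL28 were called higher in MDA-MB-231, CXCL11 was not called and the rest were called higher in 4T1. CCL2, which draws monocytes, was at 1.08, 0.929 and 1.03 TPM in MDA-MB-231 and 533, 418 and 468 TPM in 4T1 (log2 difference -8.84, adjusted p = 1.9e-19). CCL7, its neighbour, had 14.6, 18.9 and 24.9 TPM in 4T1 and no count in MDA-MB-231. CCL20, a ligand of CCR6, was at 1.797, 2.26 and 2.34 TPM in MDA-MB-231 and 147, 166 and 155 TPM in 4T1, and CXCL10, an interferon-induced ligand of T cells, at 0.222, 0.656 and 1.48 TPM in MDA-MB-231 and 28.8, 22.1 and 26.2 TPM in 4T1. CCL5 had 38.8, 23.5 and 26.2 TPM in 4T1 and 0 counts in MDA-MB-231, but its human identifier is one of the late ones and 75% of its human windows were unique. CCL28, a mucosal chemokine, was higher in MDA-MB-231, at 6.04, 7.38 and 6.53 TPM in MDA-MB-231 and 0.252, 0.0497 and 0.0493 TPM in 4T1 (log2 difference 5.76), and so was CCL26 at 5.55, 4.02 and 3.89 TPM in MDA-MB-231 and 0 TPM in every 4T1 library.

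Interleukins and colony-stimulating factors went both ways, also within families. Of 24 tested, 11 were called higher in MDA-MB-231 against 9 in 4T1 (8 and 8 under the stricter call), with a median of 1.05. IL1B, the inflammatory interleukin 1 beta, was at 403, 431 and 427 TPM in MDA-MB-231 and 0.289, 0 and 0.4703 TPM in 4T1 (log2 difference 10.63 ± 0.21 SE, adjusted p = 1.9e-19), and IL1A at 42.3, 42.5 and 33.6 TPM in MDA-MB-231 and 2.52, 3.18 and 3.58 TPM in 4T1. IL18, also matured by the inflammasome, was at 74.8, 68.05 and 71.3 TPM in MDA-MB-231 and 0.2497, 0.8197 and 0.406 TPM in 4T1. The reverse held for IL1RN, which blocks the interleukin 1 receptor and was seen in 4T1 alone at 13.5, 13.2 and 14.01 TPM, and for IL33, another member of the family, at 12.4, 13.2 and 14.1 TPM in 4T1 with no count in MDA-MB-231.

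Members of the interleukin 6 family that signal through gp130 were divided as well. IL6 was at 28.7, 32.6 and 26.4 TPM in MDA-MB-231 and 1.03, 0.813 and 1.81 TPM in 4T1 (log2 difference 4.57, adjusted p = 5.9e-14) and IL11 at 109, 118 and 112 TPM in MDA-MB-231 and 2.29, 3.67 and 2.35 TPM in 4T1 (log2 difference 5.34), both called higher in MDA-MB-231. LIF was at 128, 112 and 119.5 TPM in MDA-MB-231 and 216, 204 and 194 TPM in 4T1, higher in 4T1 by less than 4-fold (log2 difference -0.77, adjusted p = 7.0e-08). The shared receptor chain IL6ST did not pass the test, at 32.7, 38.7 and 37.8 TPM in MDA-MB-231 and 37.7, 41.5 and 37.2 TPM in 4T1 (adjusted p = 0.35). OSMR, the receptor of oncostatin M, was at 31.9, 36.1 and 36.3 TPM in MDA-MB-231 and 0.0808, 0.0995 and 0.237 TPM in 4T1 (log2 difference 7.93).

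Of the 3 colony-stimulating factors that act on myeloid cells, CSF1 and CSF2 were higher in 4T1 and CSF3 did not pass the test. CSF1, which sustains macrophages, was at 49.7, 52.9 and 53.3 TPM in MDA-MB-231 and 393, 400.3 and 374 TPM in 4T1 (log2 difference -2.90 ± 0.09 SE, adjusted p = 9.0e-17). CSF2, the granulocyte and macrophage factor, was at 62.8, 46.6 and 42.5 TPM in MDA-MB-231 and 445, 390.3 and 434 TPM in 4T1 (log2 difference -3.06 ± 0.13 SE, adjusted p = 1.3e-14). CSF3, the granulocyte factor, was at 56.6, 51.96 and 55.4 TPM in MDA-MB-231 and 49, 37.97 and 51.1 TPM in 4T1 (log2 difference 0.25 ± 0.13 SE, adjusted p = 0.069), and all 3 MDA-MB-231 libraries were above all 3 4T1 libraries. SPP1, osteopontin, was among the most one-sided secreted products, at 0.287, 0.213 and 0.411 TPM in MDA-MB-231 and 1280, 1259 and 1491 TPM in 4T1 (log2 difference -12.08). IL34, which shares the CSF1 receptor, was at 0.117, 0.2301 and 0.111 TPM in MDA-MB-231 and 52.5, 46.7 and 51.9 TPM in 4T1. MIF, a macrophage-acting cytokine, had 4223, 2656 and 3313 TPM in 4T1 and 3 counts in all of MDA-MB-231, but 92.3% of its human exons overlap another gene and 60% of its mouse windows were unique, so its level is uncertain in both lines.

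Growth factors gave 10 of 40 (25%) called higher in MDA-MB-231 against 13 (32.5%) in 4T1, beside 22.7% and 20.4% of all genes. Under the stricter call the counts were 5 and 9, and the median was 0.23. Ligands of EGFR and its relatives went both ways. AREG, amphiregulin, was at 1.903, 1.25 and 1.21 TPM in MDA-MB-231 and 1794, 1954 and 1980 TPM in 4T1 (log2 difference -10.34 ± 0.16 SE, adjusted p = 2.8e-20). EREG, epiregulin, was at 1.69, 1.39 and 0.9999 TPM in MDA-MB-231 and 207, 246 and 242 TPM in 4T1, and BTC, betacellulin, at 0.491, 0.581 and 0.749 TPM in MDA-MB-231 and 66.7, 63.3 and 74.8 TPM in 4T1. HBEGF and TGFA were expressed in both lines and lay below the 4-fold limit, with log2 differences of -0.51 and -1.16. EGF and NRG1, a neuregulin, were called higher in 4T1 (log2 difference -2.60 and -2.56) but not under the stricter call. NRG2 was called higher in MDA-MB-231, at 2.94, 2.29 and 2.16 TPM in MDA-MB-231 and 0, 0.175 and 0.0579 TPM in 4T1 (log2 difference 4.86), and so was NRG4 at under 1 TPM in each library, with a log2 difference that went down to 0.30 with other lengths. EGFR itself was higher in MDA-MB-231, as given above.

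The vascular factors were divided by member. VEGFA was at 12.3, 11.98 and 13.6 TPM in MDA-MB-231 and 934, 905 and 889.9 TPM in 4T1 (log2 difference -6.17 ± 0.11 SE, adjusted p = 6.5e-20), and ANGPTL4, a target of hypoxia and PPAR factors, at 15.99, 9.45 and 10.7 TPM in MDA-MB-231 and 172, 167 and 183 TPM in 4T1. VEGFC, a lymphatic factor, was at 136, 129 and 139 TPM in MDA-MB-231 and 33.9, 35.96 and 31.99 TPM in 4T1, just below the limit in the other direction (log2 difference 1.99). PDGFB was at 0.391, 0.257 and 0.498 TPM in MDA-MB-231 and 112, 107 and 107 TPM in 4T1, while PDGFD was seen in MDA-MB-231 alone at 5.37, 6.27 and 6.17 TPM. FGF5 was at 41.5, 43.4 and 46.02 TPM in MDA-MB-231 and 0, 0 and 0.0562 TPM in 4T1, with 1 count in all of 4T1, and FGF21, a metabolic hormone, at 0.193, 0 and 0.368 TPM in MDA-MB-231 and 151, 119.9 and 139 TPM in 4T1, with 3 counts in all of MDA-MB-231.

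TGF-beta ligands were all measured in both lines. TGFB1 was at 418, 330.5 and 361 TPM in MDA-MB-231 and 103, 96.5 and 102 TPM in 4T1 (log2 difference 1.88, adjusted p = 2.4e-13), TGFB2 at 37.2, 43.1 and 43.2 TPM in MDA-MB-231 and 9.16, 8.87 and 7.58 TPM in 4T1 (log2 difference 2.27) and TGFB3 at 0.698, 1.18 and 1.14 TPM in MDA-MB-231 and 6.44, 4.97 and 5.54 TPM in 4T1 (log2 difference -2.48). TGFB2 and TGFB3 were called, in opposite directions, and TGFB2 fell below the limit without the composition factor, at 1.965. The receptor TGFBR1 did not pass the test, at 11.7, 15.3 and 14.6 TPM in MDA-MB-231 and 14.9, 16.9 and 17.8 TPM in 4T1 (adjusted p = 0.059). TNF superfamily ligands were few: 3 of 6 tested were called higher in MDA-MB-231 against 0 in 4T1, and the count for MDA-MB-231 was 5 without MDA-MB-231 replicate 3 or any one of the 4T1 libraries. TNFSF12, which encodes TWEAK, was at 28.5, 19.9 and 23.8 TPM in MDA-MB-231 and 6.16, 4.22 and 5.096 TPM in 4T1 (log2 difference 2.22, or 1.91 and not called without the composition factor), with 57.9% of its mouse exons overlapping another gene. TNFSF9, the ligand of 4-1BB, was not called, at 49.5, 49.1 and 53.8 TPM in MDA-MB-231 and 34.1, 30.4 and 31.1 TPM in 4T1 (log2 difference 0.67).

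Among cytokine receptors, 12 of 41 tested (29.3%) were called higher in MDA-MB-231 against 10 (24.4%) in 4T1, beside 22.7% and 20.4% of all genes. Under the stricter call the counts were 9 and 7, and the median was -0.23. IL1R1, the receptor of interleukin 1, was at 0.548, 0.685 and 0.662 TPM in MDA-MB-231 and 66.3, 80.4 and 76.1 TPM in 4T1 (log2 difference -6.87, adjusted p = 8.9e-19), so it was higher in 4T1, where IL1B was close to 0. ACKR3, a scavenging chemokine receptor, was at 0.126, 0.124 and 0.12 TPM in MDA-MB-231 and 182, 146 and 172 TPM in 4T1, with 3 counts in all of MDA-MB-231. IFNGR1, the binding chain of the interferon gamma receptor, was at 17.9, 23.8 and 24.7 TPM in MDA-MB-231 and 272, 285 and 318 TPM in 4T1 (log2 difference -3.72). IL7R, the interleukin 7 receptor, was seen in MDA-MB-231 alone at 17.9, 19.3 and 19.3 TPM, and so was CXCR4, the receptor of CXCL12, at 4.67, 3.54 and 4.28 TPM. CSF2RA was at 16.98, 17.5 and 15.7 TPM in MDA-MB-231 and 0.171, 0 and 0.251 TPM in 4T1, but 0% of its human windows were unique, so its level in MDA-MB-231 is uncertain.

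**Figure D3:**
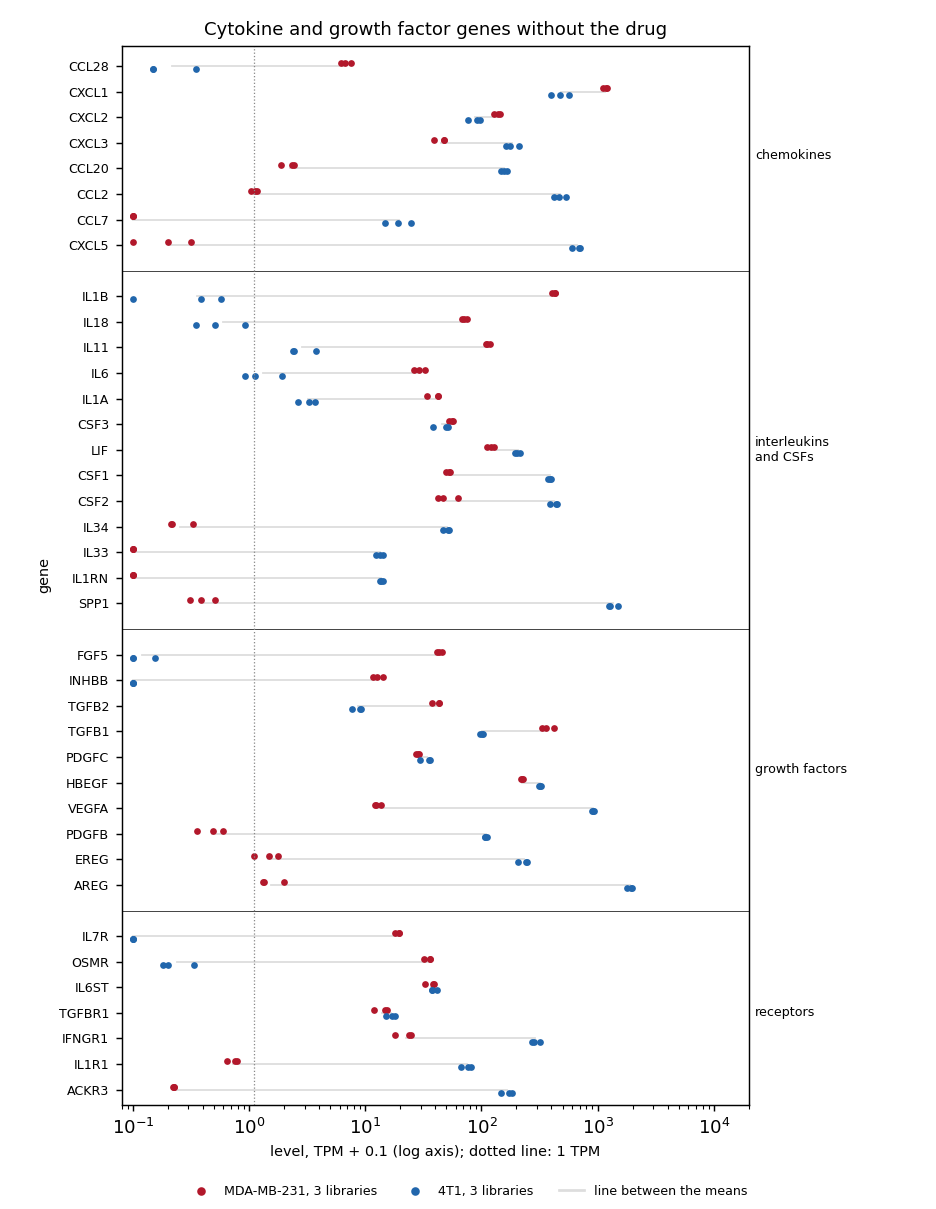
Level of chemokine, interleukin, growth factor and receptor genes in each untreated library (horizontal, TPM + 0.1, log axis; 3 MDA-MB-231 libraries in red, 3 4T1 libraries in blue, grey bars joining the means, dotted line at 1 TPM). CXCL5, CCL2, SPP1 and AREG lie far to the right in 4T1, IL1B, IL18 and FGF5 in MDA-MB-231, and CXCL1, CXCL2 and CSF3 close together.

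Kinases that ponatinib is known to bind, among them the ABL, SRC, FGFR, DDR and VEGF receptor families, are given here by their levels before the drug. Of 36 receptor tyrosine kinases tested, 11 were called higher in MDA-MB-231 against 11 in 4T1 (10 and 9 under the stricter call), around a median of -0.66. FGFR1 was at 34.2, 35.3 and 35.2 TPM in MDA-MB-231 and 0.275, 0.367 and 0.306 TPM in 4T1 (log2 difference 6.78 ± 0.14 SE, adjusted p = 3.1e-19). FGFR4 was at 16.9, 13.3 and 14.2 TPM with no count in 4T1, at least 265-fold higher. FLT1, a VEGF receptor, was at 0.0621, 0.0613 and 0.138 TPM in MDA-MB-231 and 7.88, 9.804 and 8.78 TPM in 4T1 (log2 difference -6.61), and PDGFRA was seen in 4T1 alone at 0.753, 0.862 and 1.49 TPM. KDR, the main VEGF receptor of endothelium, was low in both, at 2.22, 2.998 and 3.09 TPM in MDA-MB-231 and 1.61, 1.15 and 2.21 TPM in 4T1.

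The collagen receptors were both higher in 4T1. DDR1 was at 16.8, 14 and 17.3 TPM in MDA-MB-231 and 88.7, 78.2 and 71.05 TPM in 4T1 (log2 difference -2.31 ± 0.11 SE, adjusted p = 6.9e-14), though the value ran to -1.46 with other lengths, and DDR2 at 0.375, 0.162 and 0.671 TPM in MDA-MB-231 and 2.43, 2.71 and 2.27 TPM in 4T1 (log2 difference -2.60). EPHA2, an ephrin receptor, was the most abundant receptor tyrosine kinase of each line, at 628, 615 and 651 TPM in MDA-MB-231 and 2443, 2246 and 2060 TPM in 4T1, 4T1 being higher by less than 4-fold (log2 difference -1.83). EPHB2 was at 50.4, 48.6 and 47.96 TPM in MDA-MB-231 and 0.435, 0.487 and 0.638 TPM in 4T1 (log2 difference 6.55), PTK7, a receptor without kinase activity, at 117, 109.6 and 115 TPM in MDA-MB-231 and 2.07, 1.23 and 1.47 TPM in 4T1 (log2 difference 6.16) and MET, the hepatocyte growth factor receptor, at 28.3, 33.6 and 30.5 TPM in MDA-MB-231 and 62.2, 70.2 and 65.5 TPM in 4T1 (log2 difference -1.10).

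Cytoplasmic tyrosine kinases included 8 of 24 called higher in 4T1 and 5 higher in MDA-MB-231 (7 and 3 under the stricter call), with a median of -0.97. SRC was at 25.2, 25.7 and 24.98 TPM in MDA-MB-231 and 390.5, 367 and 334 TPM in 4T1 (log2 difference -3.85 ± 0.10 SE, adjusted p = 5.1e-18). YES1, its close relative, was higher in MDA-MB-231, at 74.2, 82.2 and 80.5 TPM in MDA-MB-231 and 6.16, 8.71 and 8.64 TPM in 4T1 (log2 difference 3.33), and LYN did not pass the test, at 14.1, 16.3 and 16.4 TPM in MDA-MB-231 and 12.4, 13.2 and 13.6 TPM in 4T1 (adjusted p = 0.054). CSK, which restrains the family, was at 195, 168 and 174 TPM in MDA-MB-231 and 42.9, 38.3 and 41.3 TPM in 4T1 (log2 difference 2.13, or 1.82 and not called without the composition factor). ABL1 was at 78.95, 82.98 and 87.4 TPM in MDA-MB-231 and 41.3, 38.8 and 36.4 TPM in 4T1 and ABL2 at 30.7, 32.3 and 30.6 TPM in MDA-MB-231 and 113, 126 and 101 TPM in 4T1, which made opposite differences below the 4-fold limit (log2 difference 1.097 and -1.86). PTK6, an epithelial kinase, was at 52.5, 49.4 and 42.5 TPM with no count in 4T1, at least 717-fold higher. FRK, another epithelial kinase, was at 0.03897, 0.115 and 0.0372 TPM in MDA-MB-231 and 13.98, 20.4 and 19.4 TPM in 4T1. PTK2, the focal adhesion kinase, did not pass the test, at 46.8, 53.2 and 53.2 TPM in MDA-MB-231 and 55.2, 58.8 and 53.6 TPM in 4T1 (adjusted p = 0.16).

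The MAP kinase cascade was mixed, with 14 of 72 tested genes called higher in MDA-MB-231 against 15 in 4T1 (10 and 9 under the stricter call), shares near the background, and a median of -0.07. The 4 p38 genes stood apart from each other. MAPK14, which encodes p38 alpha (human chromosome 6, 36027782 to 36111236), was at 74.7, 81.3 and 83.4 TPM in MDA-MB-231 and 129.7, 139 and 125 TPM in 4T1 (log2 difference -0.72 ± 0.09 SE, adjusted p = 1.6e-07). MAPK11, p38 beta, was at 28.96, 30.01 and 33.3 TPM in MDA-MB-231 and 72.8, 61.5 and 65.5 TPM in 4T1 (log2 difference -1.11), and MAPK12, p38 gamma, at 44.02, 35.4 and 38.7 TPM in MDA-MB-231 and 19.9, 18.9 and 17.8 TPM in 4T1 (log2 difference 1.06). With the other lengths the difference of MAPK12 ran up to 2.34 and it was called under each of them. MAPK13, p38 delta, was the one p38 gene called with merged exons, at 33.9, 32.5 and 31.5 TPM in MDA-MB-231 and 1.38, 0.453 and 0.578 TPM in 4T1 (log2 difference 5.34 ± 0.21 SE, adjusted p = 2.8e-15). Alpha was the most abundant p38 form in both lines.

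Several kinases above and below p38 in the cascade differed widely. MAP2K6, an activator of p38, was at 0.0938, 0.123 and 0.0745 TPM in MDA-MB-231 and 86.5, 98.2 and 104 TPM in 4T1 (log2 difference -9.92, adjusted p = 5.5e-20), while MAP2K3, another p38 activator, was at 237, 185 and 184 TPM in MDA-MB-231 and 115, 103 and 106 TPM in 4T1 (log2 difference 0.90). MAPKAPK3, a kinase downstream of p38, was at 116, 104 and 102 TPM in MDA-MB-231 and 0.554, 1.18 and 0.999 TPM in 4T1 (log2 difference 6.87), and MAPKAPK2, its relative, did not pass the test, at 206, 193 and 188 TPM in MDA-MB-231 and 172, 180.1 and 179 TPM in 4T1 (adjusted p = 0.11). MAP3K5, a stress-activated kinase at the top of the cascade, was at 3.46, 3.69 and 3.48 TPM in MDA-MB-231 and 43.3, 49.4 and 48.2 TPM in 4T1 (log2 difference -3.73), and MAP3K8, which is activated by inflammatory signals, at 7.48, 9.64 and 8.403 TPM in MDA-MB-231 and 0.151, 0.0496 and 0.0492 TPM in 4T1 (log2 difference 6.56). DUSP16, a phosphatase of stress kinases, was at 1.46, 1.15 and 1.497 TPM in MDA-MB-231 and 38.6, 41.2 and 41.2 TPM in 4T1 (log2 difference -4.88), and DUSP23 was seen in MDA-MB-231 alone at 326, 249.8 and 245 TPM, at least 1572-fold higher.

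In the growth-factor branch, MAPK3, which encodes a terminal kinase of the cascade, was higher in 4T1 by less than 4-fold (log2 difference -1.56). DUSP6, a phosphatase induced by ERK activity, was at 124, 162 and 166 TPM in MDA-MB-231 and 560.1, 551 and 521 TPM in 4T1 (log2 difference -1.85), and DUSP5, which was called, at 106, 113 and 111 TPM in MDA-MB-231 and 527, 477 and 482 TPM in 4T1 (log2 difference -2.17, -1.91 at the smallest over the lengths). BRAF was at 1.43, 1.85 and 1.78 TPM in MDA-MB-231 and 9.58, 10.97 and 10.5 TPM in 4T1 (log2 difference -2.62, -1.52 at the smallest over the lengths).

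RAS and G1 genes gave 5 of 27 (18.5%) called higher in MDA-MB-231 against 8 (29.6%) in 4T1, beside 22.7% and 20.4% of all genes. Under the stricter call the counts were 3 and 4. CDKN2A, which encodes the cell-cycle inhibitor p16 and ARF (human chromosome 9, 21967752 to 21995301), had 0 counts in every MDA-MB-231 library and 889.7, 715 and 769.6 TPM in 4T1, at least 12042-fold higher. CDKN2B, its neighbour, likewise had 0 counts in MDA-MB-231 and 174, 163 and 169.5 TPM in 4T1. CDKN2C, another inhibitor of the family, was the reverse, at 87.4, 79.2 and 95.9 TPM in MDA-MB-231 and 3.82, 3.996 and 4.39 TPM in 4T1 (log2 difference 4.42, adjusted p = 2.5e-17). HRAS was at 572, 426 and 433 TPM in MDA-MB-231 and 71.8, 57.7 and 59.6 TPM in 4T1 (log2 difference 2.92), while NRAS was at 62.3, 77.7 and 76.4 TPM in MDA-MB-231 and 94.1, 102 and 96.8 TPM in 4T1 (log2 difference -0.44). NF1, which turns RAS off, was at 1.12, 1.02 and 1.02 TPM in MDA-MB-231 and 21.8, 26.1 and 20.8 TPM in 4T1 (log2 difference -4.44, adjusted p = 1.3e-17). CCND3 was called higher in MDA-MB-231 (log2 difference 2.54) and CCND2 in 4T1 (log2 difference -2.52). MYC was at 216, 215 and 224 TPM in MDA-MB-231 and 1343, 1179 and 1163 TPM in 4T1 (log2 difference -2.49), which ran to -1.10 with other lengths.

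JAK-STAT genes gave 2 of 21 (9.52%) called higher in MDA-MB-231 against 5 (23.8%) in 4T1, beside 22.7% and 20.4% of all genes. Under the stricter call the counts were 1 and 4, and the median was -0.38. Of the 22 paired members, 19 were expressed in both lines. STAT3, which answers IL6, was at 55.4, 55.3 and 57.5 TPM in MDA-MB-231 and 42.5, 37.1 and 39.6 TPM in 4T1 (log2 difference 0.50), and STAT6 did not pass the test, at 80.9, 80.3 and 79.3 TPM in MDA-MB-231 and 79.98, 78.8 and 78.2 TPM in 4T1 (adjusted p = 0.8). STAT5A was at 25.9, 23.02 and 24.7 TPM in MDA-MB-231 and 3.46, 3.82 and 3.59 TPM in 4T1 (log2 difference 2.76). JAK2 was at 1.35, 1.36 and 1.29 TPM in MDA-MB-231 and 21.8, 24.2 and 26.3 TPM in 4T1 (log2 difference -4.17, adjusted p = 7.9e-16), and SOCS6, an adaptor of the suppressor family, at 2.01, 1.23 and 2.81 TPM in MDA-MB-231 and 71.98, 76.4 and 78 TPM in 4T1 (log2 difference -5.22).

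**Figure D4:**
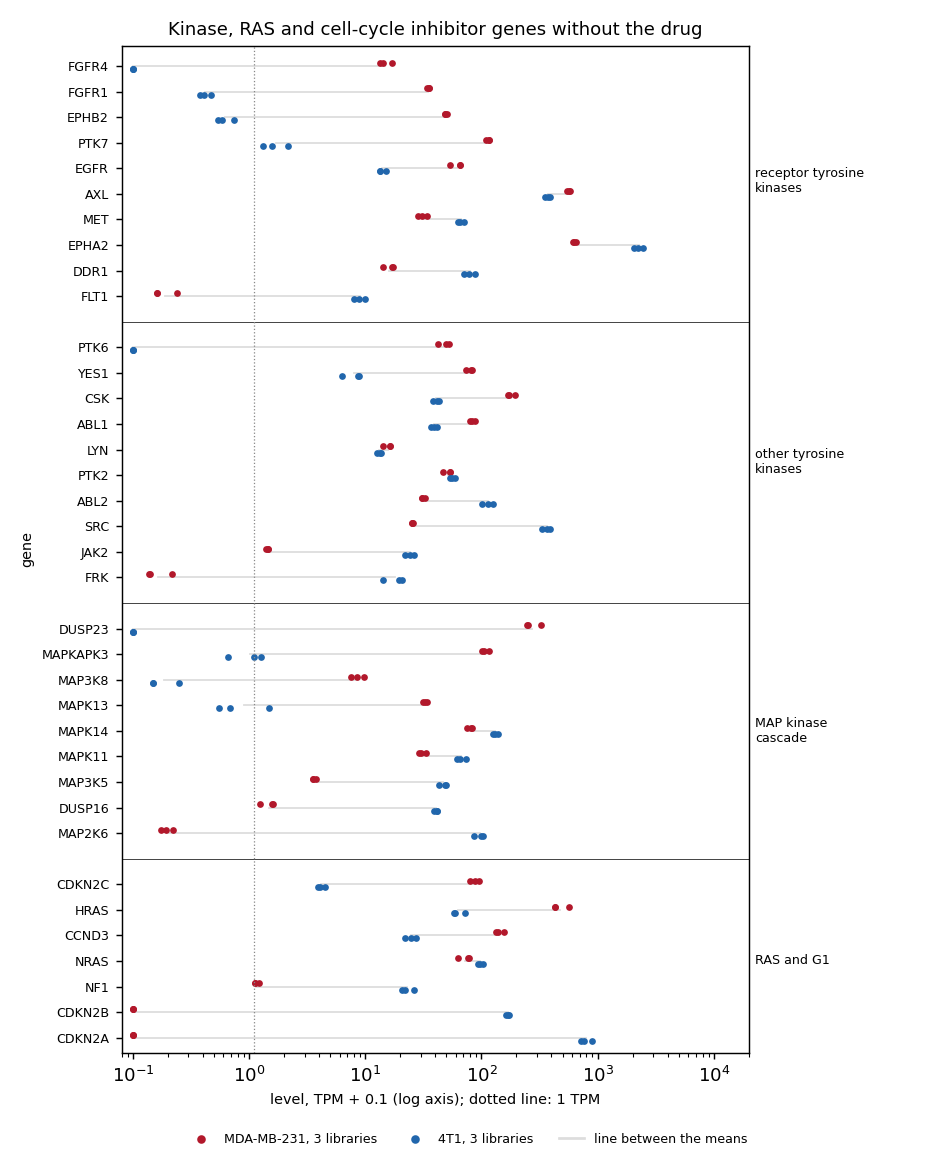
Level of kinase, phosphatase, RAS and cell-cycle inhibitor genes in each untreated library (horizontal, TPM + 0.1, log axis; 3 MDA-MB-231 libraries in red, 3 4T1 libraries in blue, grey bars joining the means, dotted line at 1 TPM). FGFR1, PTK6, MAPK13 and MAPKAPK3 lie to the right in MDA-MB-231, SRC, JAK2, MAP2K6 and CDKN2A in 4T1, and LYN and PTK2 nearly coincide.

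The 2 lines expressed different collagens. Of 22 tested, 10 were called higher in MDA-MB-231 against 8 in 4T1, 10 and 7 met the stricter call, and 4 were not called. Of the collagen IV chains of basement membranes, COL4A1 and COL4A5 were called higher in 4T1. COL4A1 was at 9.18, 10.7 and 11.9 TPM in MDA-MB-231 and 239, 252 and 231 TPM in 4T1 (log2 difference -4.50 ± 0.11 SE, adjusted p = 3.0e-18), COL4A5 at 0.724, 0.757 and 0.6904 TPM in MDA-MB-231 and 6.79, 9.08 and 6.05 TPM in 4T1 (log2 difference -3.33) and COL18A1, another basement membrane chain, at 20.6, 18.03 and 17.9 TPM in MDA-MB-231 and 371, 356 and 339 TPM in 4T1 (log2 difference -4.24), with 28.9% of its human exons overlapping another gene. COL4A2, the partner of COL4A1, lay just below the 4-fold limit, at 42.8, 41.2 and 45.3 TPM in MDA-MB-231 and 169.6, 179 and 168 TPM in 4T1 (log2 difference -1.998, -0.34 at the smallest over the lengths). The chains of other collagens went both ways. On the 4T1 side, COL5A3 was at 0, 0 and 0.0366 TPM in MDA-MB-231 and 3.82, 3.04 and 2.91 TPM in 4T1 with 1 count in all of MDA-MB-231, COL20A1 at 0.119, 0 and 0.0453 TPM in MDA-MB-231 and 7.72, 6.61 and 7.67 TPM in 4T1 (log2 difference -6.98) and COL9A3 at 0.108, 0 and 0.154 TPM in MDA-MB-231 and 1.16, 1.53 and 1.297 TPM in 4T1 (log2 difference -3.82), and COL11A2 and COL15A1 were called there too. COL9A2, the partner of COL9A3, was the reverse, at 7.84, 7.56 and 6.83 TPM with no count in 4T1, at least 92.8-fold higher in MDA-MB-231. Also on the MDA-MB-231 side, COL6A2 was at 188, 151 and 157 TPM in MDA-MB-231 and 1.07, 1.12 and 1.29 TPM in 4T1 (log2 difference 7.15), COL6A1 at 55.96, 50.9 and 52.8 TPM in MDA-MB-231 and 3.898, 4.56 and 3.14 TPM in 4T1 (log2 difference 3.78) and COL8A1 at 54.1, 57.4 and 58.1 TPM in MDA-MB-231 and 0.895, 1.102 and 1.12 TPM in 4T1 (log2 difference 5.76). COL13A1, a membrane collagen, was at 75.3, 74.5 and 79.6 TPM and had no count in 4T1, at least 1465-fold higher. COL1A1, the fibrillar collagen of stroma, was low in both, at 13.6, 11.3 and 11.6 TPM in MDA-MB-231 and 2.63, 2.404 and 1.9 TPM in 4T1 (log2 difference 2.40).

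Laminins and other glycoproteins also went both ways, with 17 of 42 called higher in MDA-MB-231 against 15 in 4T1 (12 and 13 under the stricter call), around a median of 0.07. LAMB1, a laminin chain of many basement membranes, was at 9.16, 10.3 and 10.4 TPM in MDA-MB-231 and 375, 355 and 329.8 TPM in 4T1 (log2 difference -5.15), LAMA5 at 106, 90.03 and 99.7 TPM in MDA-MB-231 and 727, 657 and 547 TPM in 4T1 (log2 difference -2.71) and NID1, which links laminin to collagen IV, at 0.179, 0.0442 and 0.0427 TPM in MDA-MB-231 and 296, 298 and 264 TPM in 4T1 (log2 difference -11.59, adjusted p = 5.6e-20). Other basement membrane genes were called higher in MDA-MB-231, at lower levels. LAMA1 was at 4.05, 4.47 and 5.2 TPM with no count in 4T1, at least 180.1-fold higher, LAMA4 at 1.52, 1.14 and 1.08 TPM in MDA-MB-231 and 0.0638, 0.0157 and 0.0311 TPM in 4T1 (log2 difference 4.998), LAMA2 at 0.168, 0.331 and 0.197 TPM in MDA-MB-231 and 0.01405, 0 and 0.0137 TPM in 4T1 with 2 counts in all of 4T1, and NID2, the relative of NID1, at 0.838, 0.827 and 1.198 TPM in MDA-MB-231 and 0.154, 0.114 and 0 TPM in 4T1 (log2 difference 3.36), with 22.2% of its human exons overlapping another gene. LAMB3, a chain of the hemidesmosome laminin, was expressed in both lines, at 1342, 1132 and 1170 TPM in MDA-MB-231 and 386, 322 and 342 TPM in 4T1 (log2 difference 1.79). FBLN2, a fibulin of elastic and basement membranes, was at 0.108, 0 and 0 TPM in MDA-MB-231 and 553, 453 and 444 TPM in 4T1, with 2 counts in all of MDA-MB-231 and a ratio of 13682 4T1 over MDA-MB-231 (95% counting interval 3787 to 112984). THBS1, thrombospondin 1, stood the other way, at 119, 150 and 152 TPM in MDA-MB-231 and 3.14, 3.74 and 2.73 TPM in 4T1 (log2 difference 5.45 ± 0.14 SE, adjusted p = 4.6e-18).

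The binding proteins of latent TGF-beta were divided by member. LTBP4 was at 157, 131 and 144 TPM in MDA-MB-231 and 5.68, 5.86 and 3.96 TPM in 4T1 (log2 difference 4.80). LTBP1 was at 6.09, 8.46 and 8.04 TPM in MDA-MB-231 and 261, 243 and 224 TPM in 4T1 (log2 difference -5.01) and LTBP3 at 32.4, 24.4 and 31.04 TPM in MDA-MB-231 and 473, 390.1 and 364 TPM in 4T1 (log2 difference -3.80). LTBP2 was called higher in 4T1 too, at 6.48, 6.51 and 7.99 TPM in MDA-MB-231 and 63.1, 56.2 and 52.8 TPM in 4T1 (log2 difference -3.03). TNC, tenascin C, was at 54.5, 56.4 and 60.3 TPM in MDA-MB-231 and 7.101, 7.64 and 5.401 TPM in 4T1 (log2 difference 3.09), and its relative TNXB at 0.589, 0.4199 and 0.6401 TPM in MDA-MB-231 and 28.9, 31.4 and 24.9 TPM in 4T1 (log2 difference -5.68).

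Proteoglycans showed 6 of 20 called higher in MDA-MB-231 against 4 in 4T1, and all 6 and 4 met the stricter call. SRGN, the proteoglycan of secretory granules, was at 836, 951 and 949 TPM in MDA-MB-231 and 0, 0.345 and 0 TPM in 4T1 (log2 difference 12.77, adjusted p = 1.1e-19). ESM1, an endothelial proteoglycan, was at 143, 174 and 168 TPM with no count in 4T1, at least 1484-fold higher. ACAN, aggrecan, the main proteoglycan of cartilage, was at 0.0238, 0.0235 and 0.0455 TPM in MDA-MB-231 and 347, 352 and 290.5 TPM in 4T1 (log2 difference -13.22, adjusted p = 2.8e-20). GPC1, a glypican, was at 13.1, 11.9 and 12.2 TPM in MDA-MB-231 and 444, 426 and 403 TPM in 4T1 (log2 difference -5.10). AGRN and SDC4, which act at the cell surface, were close between the lines, with log2 differences of 0.21 and 0.22.

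Matrix proteases and their inhibitors gave more calls for MDA-MB-231 than for 4T1. Of 44 tested, 22 (50%) were called higher in MDA-MB-231 against 9 (20.5%) in 4T1, against 22.7% and 20.4% of all genes, and 18 and 4 met the stricter call. The median log2 difference was 1.74. MMP14, the membrane-bound collagenase, was at 545, 528 and 538 TPM in MDA-MB-231 and 21.4, 27.6 and 25.03 TPM in 4T1 (log2 difference 4.44 ± 0.11 SE, adjusted p = 3.1e-18). MMP3, stromelysin 1, was at 372, 427 and 398 TPM in MDA-MB-231 and 0.417, 0.274 and 0 TPM in 4T1 (log2 difference 10.66), and MMP9, gelatinase B, at 28.2, 19.4 and 24.4 TPM in MDA-MB-231 and 1.08, 0.999 and 0.595 TPM in 4T1 (log2 difference 4.74). PLAU, the urokinase that activates plasmin, was at 348, 358 and 350 TPM in MDA-MB-231 and 37.5, 43.4 and 40.1 TPM in 4T1 (log2 difference 3.13), and PLAT at 292, 298 and 303 TPM in MDA-MB-231 and 35.1, 36.8 and 36.7 TPM in 4T1 (log2 difference 3.04). ADAM19 and ADAMTS16 were seen in MDA-MB-231 alone, at 43.05, 46.9 and 48.8 TPM and 20.5, 19.02 and 19.2 TPM.

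The inhibitors were not all on the same side. TIMP1 was at 699, 560.2 and 537 TPM in MDA-MB-231 and 84.98, 82.3 and 95.4 TPM in 4T1 (log2 difference 2.77), while TIMP2 was at 149, 170.2 and 171 TPM in MDA-MB-231 and 535, 539 and 548 TPM in 4T1 (log2 difference -1.73). PLAUR, the urokinase receptor, was at 355, 333 and 322 TPM in MDA-MB-231 and 746, 663 and 701 TPM in 4T1 (log2 difference -1.06). All 3 4T1 libraries were higher for PLAUR, by less than 4-fold.

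Several proteases were higher in 4T1. MMP13, a collagenase of cartilage and bone, was at 0.827, 0.907 and 0.175 TPM in MDA-MB-231 and 217, 255 and 263 TPM in 4T1 (log2 difference -8.58, adjusted p = 2.0e-18), and MMP11 at 0.455, 0.798 and 0.338 TPM in MDA-MB-231 and 38.3, 30.2 and 36.5 TPM in 4T1 (log2 difference -6.03). ADAM17, which sheds TNF and EGFR ligands, was at 1.78, 3.06 and 2.88 TPM in MDA-MB-231 and 38.7, 41.4 and 39.8 TPM in 4T1 (log2 difference -3.96), with 30.1% of its human exons overlapping another gene. MMP28 had 58.1, 55.2 and 48.3 TPM in 4T1 and 0 counts in MDA-MB-231, and its human identifier is one of the late ones. ADAMTS1 did not pass the test, at 30.4, 34.2 and 37.9 TPM in MDA-MB-231 and 33.3, 33.1 and 26.8 TPM in 4T1 (adjusted p = 0.24).

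Enzymes that modify and cross-link collagen likewise gave more calls for MDA-MB-231, 7 of 15 (46.7%) against 1 (6.67%) in 4T1, with 4 and 1 under the stricter call and a median of 1.30. LOXL1 was at 16.97, 14.1 and 14.9 TPM in MDA-MB-231 and 0.0633, 0 and 0.0618 TPM in 4T1, a ratio of 368 MDA-MB-231 over 4T1 (95% counting interval 101 to 3042). LOXL2 was at 198, 207 and 204 TPM in MDA-MB-231 and 37.7, 37.6 and 36.2 TPM in 4T1 (log2 difference 2.45), but 52.4% of the mouse windows of LOXL2 were unique. LOXL4 was the member on the 4T1 side, at 4.85, 6.14 and 6.01 TPM in MDA-MB-231 and 92.5, 86.98 and 86.9 TPM in 4T1 (log2 difference -3.97). SERPINH1, the chaperone of collagen, was at 219.6, 211 and 213 TPM in MDA-MB-231 and 32.9, 28.6 and 31.8 TPM in 4T1 (log2 difference 2.79). PLOD2 and P4HA1, which hydroxylate collagen, were near equal and turned direction with the length used, from -0.33 to 1.08 for PLOD2 and from -0.56 to 0.30 for P4HA1.

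Integrins, the receptors of these matrix proteins, were called higher in 4T1 at 6 of 17 genes against 3 in MDA-MB-231 (4 and 3 under the stricter call), around a median of -1.02. ITGA2, a collagen receptor chain, was at 9.43, 12.9 and 11.8 TPM in MDA-MB-231 and 362, 409.7 and 351 TPM in 4T1 (log2 difference -5.04 ± 0.12 SE, adjusted p = 3.2e-18). ITGAV, shared by receptors of RGD ligands, was at 5.66, 8.398 and 7.26 TPM in MDA-MB-231 and 77.3, 97.7 and 80.2 TPM in 4T1 (log2 difference -3.58), and ITGA7, a laminin receptor chain, at 0.8602, 0.821 and 0.848 TPM in MDA-MB-231 and 102, 87.4 and 92.2 TPM in 4T1 (log2 difference -6.79). ITGB7 was at 0.175, 0.115 and 0.391 TPM in MDA-MB-231 and 805, 664 and 664 TPM in 4T1, with 52.4% of its human exons overlapping another gene. ITGAE, which pairs with ITGB7 and binds E-cadherin on lymphocytes, was the reverse, at 34.6, 28.6 and 26.6 TPM in MDA-MB-231 and 0.724, 0.673 and 0.393 TPM in 4T1 (log2 difference 5.64). ITGA5, the fibronectin receptor chain, was near equal, at 115, 109 and 109.7 TPM in MDA-MB-231 and 85.04, 88.2 and 81.96 TPM in 4T1 (log2 difference 0.39).

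**Figure D5:**
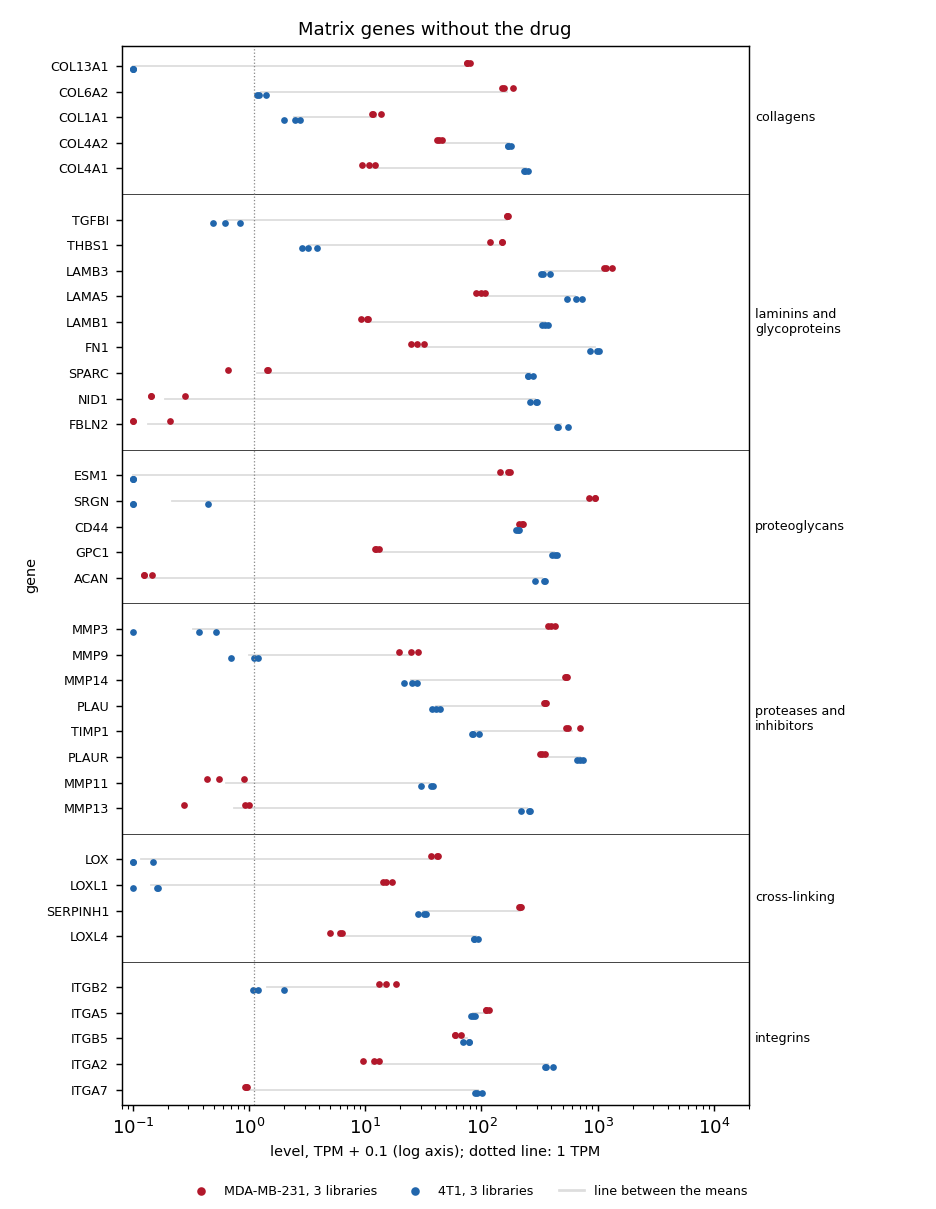
Level of collagen, glycoprotein, protease and integrin genes in each untreated library (horizontal, TPM + 0.1, log axis; 3 MDA-MB-231 libraries in red, 3 4T1 libraries in blue, grey bars joining the means, dotted line at 1 TPM). COL4A1, NID1, FBLN2, ACAN and MMP13 lie to the right in 4T1, and COL6A2, THBS1, SRGN, MMP3 and MMP14 in MDA-MB-231.

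Genes of antigen presentation and immune checkpoints gave more calls for MDA-MB-231 than for 4T1. Of 24 tested, 10 (41.7%) were called higher in MDA-MB-231 against 2 (8.33%) in 4T1, with 7 and 1 under the stricter call and a median of 1.65. PSMB8 and PSMB9, subunits of the immunoproteasome, were at 104, 91.5 and 92.3 TPM in MDA-MB-231 and 0.147, 0.289 and 0.4299 TPM in 4T1 and at 58.9, 51.4 and 50.1 TPM in MDA-MB-231 and 0.198, 0.325 and 0.322 TPM in 4T1 (log2 difference 8.33 and 7.52). In the mouse, 38.1% of the PSMB9 exons overlap another gene. TAP1, the peptide transporter, was at 53.1, 53.6 and 55.5 TPM in MDA-MB-231 and 3.002, 3.08 and 2.89 TPM in 4T1 (log2 difference 4.17, adjusted p = 3.2e-17), with 21.5% of its human exons overlapping another gene. B2M, the shared chain of class I molecules, was high in both, at 745, 775 and 770.5 TPM in MDA-MB-231 and 210.5, 222 and 269 TPM in 4T1 (log2 difference 1.71). CD274, which encodes PD-L1, was at 19.2, 18.5 and 17.7 TPM in MDA-MB-231 and 5.71, 5.26 and 6.29 TPM in 4T1, all 3 MDA-MB-231 libraries being higher by less than 4-fold (log2 difference 1.68 ± 0.14 SE, adjusted p = 6.4e-10). LGALS9, galectin 9, was the reverse, at 0.456, 0.3597 and 0.174 TPM in MDA-MB-231 and 139, 119 and 133 TPM in 4T1 (log2 difference -8.60).

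Markers of other cell types were looked for because a culture should hold 1 type. Of 25 leukocyte markers, 12 had no count in MDA-MB-231 and 15 none in 4T1, among them CD3D and MPO in both lines. PTPRC, the common leukocyte antigen, had 0 counts in all of MDA-MB-231 and 6 in all of 4T1. The summed level of the list was 102 to 106 TPM in MDA-MB-231, mostly from LCP1, an actin bundler, at 94.1, 92.8 and 92.8 TPM. In 4T1 it was 577 to 648 TPM, nearly all from CD14, a receptor for endotoxin, at 612, 570 and 642 TPM. Both genes were called (log2 difference 9.10 and -6.92).

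Endothelial markers summed to a higher level in MDA-MB-231. Of 14 markers, 6 were tested and 4 were called higher in MDA-MB-231 against 1 in 4T1 (FLT1), with a summed level of 699 to 843 TPM against 12.5 to 13.5 TPM in 4T1. ESAM, an adhesion molecule of endothelium and platelets, was at 488, 416 and 434 TPM in MDA-MB-231 and 1.07, 0.729 and 1.37 TPM in 4T1, ROBO4, an endothelial guidance receptor, at 159, 139 and 145 TPM with no count in 4T1, and EGFL7, a secreted vascular factor, at 188, 136 and 138 TPM in MDA-MB-231 and 1.63, 0.801 and 0.825 TPM in 4T1. The defining genes CDH5, VWF and TEK had 8, 12 and 1 counts in all of MDA-MB-231, and ERG and SOX17 had none. PECAM1 had 0 counts in MDA-MB-231 under a late identifier, which is not read as absence.

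Fibroblast markers were at 55.99 to 60.4 TPM in sum in MDA-MB-231 and 15.9 to 17.9 TPM in 4T1, of which COL5A1 and COL1A1 made most, and LUM, THY1 and DPT had no count in either line. Of 7 tested, 2 were called higher in each line. Of 4 adipocyte and muscle markers tested, 2 were called higher in each line too. PPARG, which drives fat cells but is also made by epithelium, was at 8.08, 9.48 and 10.1 TPM in MDA-MB-231 and 86.3, 92.7 and 91.8 TPM in 4T1 (log2 difference -3.29, -1.72 at the smallest over the lengths), and CIDEC, a protein of lipid droplets, at 0, 0.131 and 0.253 TPM in MDA-MB-231 and 39.9, 35.1 and 35.2 TPM in 4T1. The list summed to 13.4 to 16.7 TPM in MDA-MB-231 against 127 to 129 TPM in 4T1, and the part of any of these marker lists in the differences above was not tested.

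Across all tested genes of at least 50 TPM in the higher line, the 10 largest differences were listed in each direction, and those at the top of the MDA-MB-231 side were genes with no or almost no count in 4T1. DKK1, an inhibitor of WNT signalling, was at 375, 405 and 411 TPM and at least 3897-fold higher, GAS6, the ligand of AXL, at 175, 142 and 145 TPM and at least 3425-fold higher, and EEF1A2, an elongation factor, at 97.5, 71.1 and 72.5 TPM and at least 4871-fold higher. LDHB, a lactate dehydrogenase subunit, was at 1083, 1084 and 1014 TPM in MDA-MB-231 and 0, 0 and 0.109 TPM in 4T1, with 2 counts in all of 4T1. NRGN, EVA1A and RFTN1 stood in the same top 10.

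On the 4T1 side the top of the ranking held genes with no count in MDA-MB-231. HNF4A, a factor of liver and gut epithelium, was at 277, 269 and 262 TPM and at least 10726-fold higher, SPRR1A, a protein of the cornified envelope, at 1928, 1392 and 1698 TPM and at least 4337-fold higher, and TMEM176A, a membrane channel, at 444, 452 and 475 TPM and at least 6230-fold higher. SELENOP, EEF1G, TAF15, TXNIP and TMEM176B also stood there but did not meet the countability conditions. EEF1G shows the limit plainly, since 99.5% of its human exons overlap another gene and 62.96% of its windows were unique, and an elongation factor subunit had 0 counts in MDA-MB-231.

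The same reading applies to the most abundant genes. GAPDH, a glycolytic enzyme, was at 5047, 4418 and 4504 TPM in MDA-MB-231 and 53.2, 46.9 and 58.05 TPM in 4T1, but 18.5% of its mouse windows were unique and 81.5% of its mouse exons overlapped another gene, so its level in 4T1 is uncertain. TMSB10, an actin-binding peptide, was at 30908, 24343 and 22482 TPM in MDA-MB-231 and 2890, 3335 and 3778 TPM in 4T1, a log2 difference of 2.96 with merged exons that went down to 1.58 with other lengths. ACTB was close, at 5460, 5006 and 5111 TPM in MDA-MB-231 and 4013, 3254 and 3248 TPM in 4T1 (log2 difference 0.57), and LGALS1, galectin 1, at 3474, 2797 and 2840 TPM in MDA-MB-231 and 5004, 4710 and 4918 TPM in 4T1 (log2 difference -0.68).

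The difference between the lines was also measured in the 6 ponatinib libraries, which share none with the DMSO fit. Of the 2698 genes called higher in MDA-MB-231 without the drug, 2266 (83.99%) were called the same way with it and 0 the other way. Of the 2422 called higher in 4T1, 1895 (78.24%) were called the same way and 3 the other way. In that fit 2748 of 12175 tested genes (22.6%) were called for MDA-MB-231 and 2278 (18.7%) for 4T1. CXCL1 stood at a log2 difference of -0.45 with the drug beside 1.28 without it, CXCL2 at 1.97 beside 0.63, CXCL3 at -3.82 beside -2.04, CD274 at -1.33 beside 1.68 and CSF3 at -2.88 beside 0.25. IL1B stood at 6.44 beside 10.63, SRC at -2.86 beside -3.85, MAP2K6 at -4.60 beside -9.92 and MMP14 at 3.61 beside 4.44. Whether the drug moved the difference itself was not tested here.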

How the data were processed

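The deposited tables hold raw read counts per gene, which the authors made from mapped reads of RNA libraries built with a NEBNext Ultra kit. Per the submitters' processing notes, HISAT2, HTSeq, hg38 and GRCm39 were used. Versions, gene annotation and strand setting are not given in the sources used here, and no count had been normalized. Identifiers were matched to GENCODE v44 and vM39 (81.9% of 63677 human and 91.1% of 47729 mouse identifiers, holding 99.3% and 99.8% of counts).

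Same-symbol protein-coding genes were fitted with edgeR 4.0.16 in R 4.3.3 (quasi-likelihood, Benjamini-Hochberg) with the 6 untreated libraries, merged-exon length and TMM factors as offsets, and edgeR's own filter on low counts. TPM used the same lengths and factors. In simulated counts with known changes, all 4-fold and 8-fold changes (100%) were recovered at the adjusted p among 11693 genes for this comparison, and with the 4-fold requirement 52.04% of the 4-fold and 100% of the 8-fold changes were. Of the unchanged genes, 8 passed the adjusted p and 0 the 4-fold requirement as well. The simulation changed 98 tested genes by 4-fold and 100 by 8-fold, and all others had equal means in both lines. In the real libraries most genes differed, so these rates do not show how the scaling between the lines performed there. Gene windows of 100 bases were mapped with minimap2 2.31. Counting intervals are exact (Clopper-Pearson, 95%) and cover counting error only, and the floor for a gene at 0 is 3 counts over the 3 libraries of a line. DESeq2 1.42.0, limma 3.58.1, other lengths, factors and filters were alternatives. Library pairs of a line differed by more than sampling noise, at a chi-square of 3.109 to 16.4 per gene. Human promoters came from RefSeq. No per-sample column was left unused other than those of the ponatinib libraries, which served as a second comparison.

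The members, gene lists and alternatives were chosen with earlier results of these data known. Genes were named by a rule: a fixed set of genes, up to 4 called members of each list in each direction with at least 5 TPM in the higher line, up to 2 near-equal members of each list with at least 10 TPM in both lines, the 10 largest differences in each direction at 50 TPM or more, and the 10 most abundant genes of each line. Other genes in the text were list members, or were picked after their values were seen. A few genes that the rule names or the lists hold are not reported here by name.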

Additional observations from a re-analysis of the deposited data

How the results depend on the processing

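The 4-fold counts over all genes stayed within 1.5 times of 2698 and 2422 under DESeq2, RLE factors, each length and each library left out, and each of the genes given in the report that was called at 4-fold and recomputed kept its direction wherever an alternative gave a value. When 10 counts were asked of every library, the 4-fold count over all genes was 1303 for MDA-MB-231 and 1500 for 4T1. The count higher in MDA-MB-231 became 0 for chemokines, leukocyte markers and adipocyte and muscle markers, 1 for hormone and ERBB receptors, luminal genes, TNF ligands, endothelial markers and fibroblast markers, 2 for basal genes, junction genes and non-receptor tyrosine kinases, 3 for mesenchymal genes, keratins, interleukins, growth factors and proteoglycans, 4 for cytokine receptors, receptor tyrosine kinases and cross-linking enzymes, 5 for antigen presentation genes, 6 for MAP kinase cascade and collagens, 7 for laminins and glycoproteins and 9 for proteases. For 4T1, the count became 0 for endothelial markers and fibroblast markers, 1 for hormone and ERBB receptors, antigen presentation genes, leukocyte markers and adipocyte and muscle markers, 2 for interleukins and non-receptor tyrosine kinases, 3 for junction genes, keratins, chemokines, receptor tyrosine kinases and integrins, 4 for luminal genes, mesenchymal genes, collagens and proteases, 5 for cytokine receptors and 6 for growth factors. With the canonical transcript length, counts on the MDA-MB-231 side became 4 for JAK-STAT genes. The count higher in 4T1 became 1 for adipocyte and muscle markers and 4 for RAS and G1 genes. When edgeR tested against a 2-fold difference in place of the 4-fold requirement, a lower limit, the count over all genes was 3638 for 4T1. For MDA-MB-231, the count became 5 for JAK-STAT genes, 8 for RAS and G1 genes and 17 for growth factors. Counts on the 4T1 side became 5 for antigen presentation genes, 16 for cytokine receptors and 23 for MAP kinase cascade. Without the filter on low counts, the count higher in MDA-MB-231 became 4 for leukocyte markers, 5 for hormone and ERBB receptors and TNF ligands, 6 for adipocyte and muscle markers, 8 for non-receptor tyrosine kinases, 10 for proteoglycans and 16 for growth factors. For 4T1, the count became 2 for endothelial markers. With countable genes alone, counts on the MDA-MB-231 side became 1 for JAK-STAT genes and fibroblast markers, 3 for keratins and 6 for growth factors. The count higher in 4T1 became 1 for antigen presentation genes and leukocyte markers. With quantile-normalized values and limma, for MDA-MB-231, the count became 1 for hormone and ERBB receptors and adipocyte and muscle markers and 3 for basal genes and non-receptor tyrosine kinases. Counts on the 4T1 side became 0 for fibroblast markers and 1 for hormone and ERBB receptors. Without the composition factor, the count higher in MDA-MB-231 became 1 for hormone and ERBB receptors and 3 for non-receptor tyrosine kinases. The stricter filters test fewer genes by construction, and the cause of the other shifts was not tested. Directions that turned were all of genes below the 4-fold limit. With the canonical transcript length, the log2 difference turned to -0.11 for AXL, 0.27 for BSG, 0.80 for DUSP7, 0.25 for ERBB2, -0.47 for P4HA1, 1.00 for PLOD2, 0.029 for PTK2 and 0.026 for TGFBR1. With the coding length, the log2 difference turned to -0.056 for AXL, 0.44 for BSG, 0.64 for DUSP7, 0.13 for ERBB2, 0.042 for MAP3K20, -0.56 for P4HA1, 1.05 for PLOD2, 0.19 for PTK2 and 0.22 for TGFBR1. With no length term, the log2 difference turned to -0.018 for AXL, 0.45 for BSG, 0.66 for DUSP7, 0.15 for ERBB2, 0.067 for MAP3K20, -0.53 for P4HA1, 1.08 for PLOD2, 0.22 for PTK2 and 0.25 for TGFBR1. With quantile-normalized values and limma, the log2 difference turned to -0.080 for CD44, 0.13 for GATA3, 0.20 for MAP3K20, -0.15 for MSN and -0.070 for STAT6. Without the composition factor, the log2 difference turned to -0.17 for ADAMTS1, -0.099 for AGRN, -0.20 for CD44, -0.059 for CSF3, -0.23 for DSG2, -0.21 for ITGB4, -0.053 for LYN, -0.26 for MSN, -0.003 for P4HA1 and -0.29 for STAT6. With RLE factors, the log2 difference turned to 0.021 for DUSP7 and 0.055 for MAP3K20. With 1 library left out at a time, the count of TNF ligands higher in MDA-MB-231 ran from 3 to 5, reaching 5 without MDA-MB-231 replicate 3 or any one of the 4T1 libraries, and the log2 difference ran from -0.15 to 0.093 for DUSP7, -0.14 to 0.018 for GATA3 and -0.071 to 0.031 for MAP3K20.

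The labels give both lines replicates 1 to 3, but do not say that a number marks a shared day or batch. Deviations of same-numbered libraries correlated at 0.264, 0.1719 and -0.006644. MDA-MB-231 replicates 1 and 2 correlated best with the same number in 4T1, and replicate 3 with 4T1 replicate 2 (0.1557). Whether a number marks a shared batch was not tested, and the numbers were not taken to pair the libraries. With the replicate number as a block, 2697 genes were called for MDA-MB-231 and 2425 for 4T1 at 4-fold, and no list count moved.

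Counts near 0 limit the smallest levels, since 3 counts over the 3 libraries of a line are the floor used for a gene at 0. Levels between species also rest on gene models of different length, on overlapping genes and on late human identifiers, which the countability conditions address in part. Antisense partners cannot be told apart, since the sources used here do not give the strand setting.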

Other observations

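Several abundant genes of each line had no partner under the same symbol, so no difference was computed for them, and their levels stand on the scale of their own species. In MDA-MB-231, MMP1, the interstitial collagenase, was at 14190.3, 14664 and 14058 TPM, and FTL, the light chain of the iron store ferritin, at 20061, 17349.5 and 16467 TPM. CXCL8, the neutrophil chemokine that mice lack, was at 489.6, 619 and 565 TPM, which lies between the CXCL2 and CXCL1 levels of that line. KISS1, the precursor of kisspeptin, was at 3158, 2641 and 2513 TPM, and IL32, a cytokine that mice lack, at 138, 110.2 and 108 TPM.

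In 4T1, Ftl1 was at 7242, 5717 and 6455 TPM, and Sprr2h, of the cornified envelope family that also holds SPRR1A, at 694, 449.7 and 523 TPM. Prl2c2, a proliferin of the prolactin family, was at 344, 324 and 352 TPM. Cd24a, a surface glycoprotein used to sort mammary cells, was at 327, 335 and 379.7 TPM, and Ly6a, which encodes Sca-1, at 48.0, 51.3 and 57.4 TPM.

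Classical class I chains carry species-specific symbols. HLA-B was at 555, 473 and 453 TPM in MDA-MB-231, while H2-D1 was at 1146, 938 and 1021 TPM and H2-K1 at 70.5, 66.5 and 71.7 TPM in 4T1. In each species these are close copies of one another, and how reads that fit several copies were counted is not given. Metallothionein MT2A was at 7159.7, 5197 and 5618 TPM in MDA-MB-231, and Mt2 was at 950.2, 1092 and 1324 TPM in 4T1.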
